A study of Homo sapiens with 6 samples.

Results

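The regulators and markers of the epithelial-mesenchymal transition were examined in chromatin immunoprecipitation sequencing (ChIP-seq) peak lists of MDA-MB-231, a human cell line derived from triple-negative breast cancer. The 10 genes were listed by name, with no threshold on a measured value, out of 19970 protein-coding genes: the transcription factors SNAI1, SNAI2, TWIST1, TWIST2, ZEB1 and ZEB2, the cadherins CDH1 and CDH2, the intermediate filament gene VIM and the matrix gene FN1. All 10 were found in the GENCODE release 44 annotation and every list was searched for each of them.

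In the epithelial-mesenchymal transition, epithelial cells give up cell-cell junctions and apical-basal polarity and take on a migratory, spindle-shaped form. Transcription factors of the SNAIL, TWIST and ZEB families drive the change by binding E-boxes at epithelial genes such as CDH1 and recruiting corepressors, among them the Polycomb repressive complex 2 (PRC2), whose catalytic subunit EZH2 trimethylates lysine 27 of histone H3 (H3K27me3). MDA-MB-231 is known as a mesenchymal line with silent CDH1 and expressed VIM and ZEB1. RNA was not measured in these files, so this description could not be checked here.

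The study asked how EZH2 and the transcription factor E2F1 act together on chromatin. E2F1 was precipitated from untreated cells, from cells given DMSO for 72 h and from cells given the EZH2 inhibitor GSK126 at 1 µM for 72 h. H3K27me3 was precipitated after shRNA transduction of 24 h and puromycin selection at 2 µg/ml of 72 h, from cells carrying either a control shRNA or an shRNA to E2F1 (shE2F1). Each of these 5 groups is 1 library without replicates, so no difference between groups was tested, the intervals below cover counting error only, and a difference between libraries cannot be told apart from a difference between conditions.

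The 3 E2F1 libraries did not look equally deep, as judged from the lowest background at a peak summit, since read totals were not used. The lists hold 1056 peaks for untreated cells, 15703 for DMSO and 14276 for GSK126, and the lowest background at a peak summit was 0.668, 1.82 and 1.7 fragments, respectively. The H3K27me3 lists hold 123957 peaks over 143 Mb for control shRNA and 135683 peaks over 179 Mb for shE2F1. Most of the H3K27me3 peaks were weak: 26.1% of those of control shRNA and 18.6% of those of shE2F1 reached a −log10 q of 2. ACTB, a housekeeping gene, had an H3K27me3 promoter peak in both shRNA libraries and GAPDH had a peak in the shE2F1 library only.

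Sequences at the E2F1 peaks of the genes are shown because E2F proteins are known to bind a short motif, searched here as TTCCCGC or TTCGCGC or TTGCCGC or TTGGCGC on either strand. The 29-base windows below are hg38 reference sequence of the plus strand, lie at or beside the E2F1 summits of VIM (chr10:17228446-17228474), FN1 (chr2:215436000-215436028) and ZEB2 (chr2:144389818-144389846), and carry the motif in capitals where there is a match.
VIM summit: gctgagacttgaatcaatctggtctaacg
FN1 summit: caggtcccctcTTCCCGCtcgcgcctggg
ZEB2 summit: cgctccgccgcTTCCCGCtcctccgcctc

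The bases before the annotated starts of VIM and FN1, the genes with the strongest E2F1 peaks in the GSK126 library, are from RefSeq (GRCh38.p14) and are written on the strand of the gene. In VIM (chr10:17227991-17228240, plus strand) the capitals mark the 112 bases inside the E2F1 peak of GSK126-treated cells, and in FN1 (chr2:215436074-215436318, minus strand) they mark the 49 bases inside the E2F1 peak of DMSO-treated cells. The VIM stretch has a GC content of 46% and that of FN1 76.3%.
VIM upstream: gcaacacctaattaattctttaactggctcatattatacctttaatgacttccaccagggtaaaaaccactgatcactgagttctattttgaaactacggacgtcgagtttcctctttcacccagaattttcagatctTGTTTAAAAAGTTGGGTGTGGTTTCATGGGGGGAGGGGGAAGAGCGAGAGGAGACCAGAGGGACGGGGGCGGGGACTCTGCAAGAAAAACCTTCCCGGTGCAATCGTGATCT
FN1 upstream: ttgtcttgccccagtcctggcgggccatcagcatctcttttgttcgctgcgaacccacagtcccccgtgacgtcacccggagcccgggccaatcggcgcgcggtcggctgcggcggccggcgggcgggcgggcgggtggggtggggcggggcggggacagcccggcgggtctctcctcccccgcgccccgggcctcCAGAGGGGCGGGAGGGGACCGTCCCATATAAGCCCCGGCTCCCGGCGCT

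E2F1 was found at the promoters of VIM, FN1, SNAI2, SNAI1 and ZEB1 in at least 1 library, and at none of TWIST1, TWIST2, ZEB2, CDH1 and CDH2. A promoter peak is a peak with its summit, or its midpoint for H3K27me3, within 1 kb of any annotated transcription start site (TSS) of the gene. In untreated cells 1 of 10 genes (95% exact interval 0.253% to 44.5%) had an E2F1 promoter peak, against 5.85% of all protein-coding genes. With DMSO 3 of 10 genes (6.67% to 65.2%) had a peak, against 33.5% of all genes, and with GSK126 5 of 10 (18.7% to 81.3%), against 51.5%. In each of the 3 libraries the count of the genes lay near the background share, so the number of genes with a peak is not a result about the group.

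**Figure D1:**
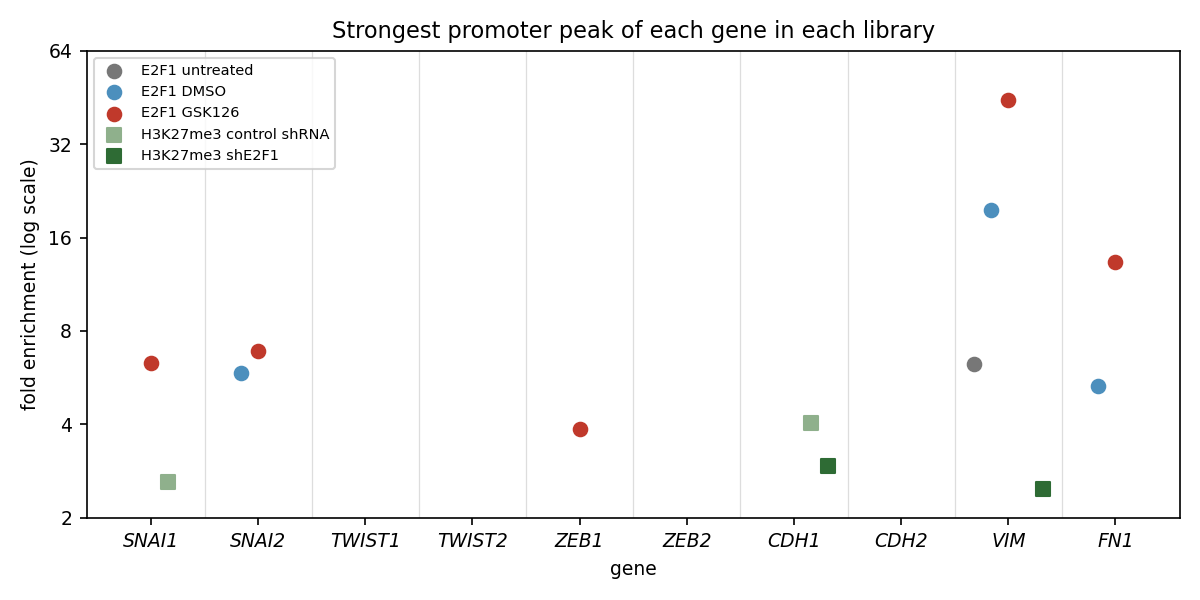
Fold enrichment of the strongest promoter peak (y axis, log scale) of each of the 10 genes (x axis) in each of the 5 libraries; circles are E2F1, squares are H3K27me3, 1 library each, and a gene without a symbol had no promoter peak in that library. VIM holds the highest values, 6.25, 19.7 and 44.5 in the untreated, DMSO and GSK126 libraries, and TWIST1, TWIST2, ZEB2 and CDH2 hold no symbol.

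VIM, which encodes the intermediate filament protein vimentin, was the only one of the 10 genes with an E2F1 promoter peak in all 3 libraries. In untreated cells the peak (GRCh38, chr10:17228327-17228826) had a fold enrichment of 6.25 and a −log10 q of 7.3, with 17 fragments at the summit (9.9 to 27.2). With DMSO it had a fold of 19.7, a −log10 q of 64.7 and 65 fragments (50.2 to 82.8). With GSK126 it had a fold of 44.5, a −log10 q of 193 and 141 fragments (119 to 166). The value was thus lowest in untreated cells, intermediate with DMSO and highest with GSK126, and the intervals of the fragment numbers, which are not corrected for depth, did not overlap. Divided by the lowest background of its own library, the fragments at the summit came to 25.5 (14.8 to 40.7), 35.7 (27.6 to 45.5) and 82.9 (69.8 to 97.8). On this scale the intervals of untreated cells and DMSO overlapped, and that of GSK126 lay above both.

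Among all protein-coding genes with an E2F1 promoter peak, VIM ranked 897 of 1168 by fold in untreated cells, 286 of 6698 with DMSO and 138 of 10279 with GSK126, which is the top 1.34%. The rank was low in the short untreated list and high in both treated lists. The summits of the 3 peaks lay 211, 219 and 228 bp downstream of the annotated gene start, inside an exon that is untranslated in the annotation and −63, −55 and −46 bp from another annotated VIM start (negative values are upstream). The peak was 500 bp wide in untreated cells, 891 bp with DMSO and 1229 bp with GSK126. The GSK126 library also held a weaker VIM peak (chr10:17229994-17230492, fold 4.18, −log10 q 4.82, 16 fragments) 1832 bp downstream of the gene start. VIM-AS1, an antisense noncoding gene, starts within 1 kb of all of these VIM peaks, and peaks do not tell the pair apart.

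None of the 4 VIM summits had the E2F motif within 100 bp. The nearest match inside a peak was TTCCCGC, 405 bp from the DMSO summit and 396 bp from the GSK126 summit. Over all promoter summits the motif was within 100 bp in 54.4% of untreated, 34.9% of DMSO and 31% of GSK126 peaks, so a summit without the motif was common in the treated lists. The strongest E2F1 peak of the 10 genes was thus a peak without the searched letters at its summit.

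FN1 encodes fibronectin, a matrix glycoprotein that mesenchymal cells secrete. No peak was found in untreated cells, whose nearest E2F1 peak lay 124 kb downstream of the gene start. With DMSO the FN1 promoter peak (chr2:215435771-215436122) had a fold of 5.32, a −log10 q of 5.78 and 14 fragments (7.65 to 23.5). With GSK126 it had a fold of 13.3, a −log10 q of 30.5 and 35 fragments (24.4 to 48.7), at 796 bp against 352 bp in width. FN1 was higher with GSK126 than with DMSO, with fragment intervals that did not overlap, either as counted or divided by the lowest background (4.21 to 12.9 and 14.3 to 28.6). Its summits lay 30 and 42 bp downstream of the gene start, and the motif TTCCCGC shown above lay at −32 and −20 bp from them on the plus strand. The divergent noncoding gene FN1-DT starts within 1 kb of the peak.

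SNAI2, the gene of the E-box repressor SLUG, also had an E2F1 peak with DMSO and with GSK126. The DMSO peak (chr8:48921719-48922091) had a fold of 5.85, a −log10 q of 9.09 and 21 fragments (13 to 32.1), and the GSK126 peak (chr8:48921785-48922113) a fold of 6.9, a −log10 q of 11.9 and 22 fragments (13.8 to 33.3). The values of both libraries were close and their intervals overlapped almost entirely. The summits lay at −186 and −217 bp from the gene start, and a match to the reverse complement of the motif, GCGGGAA, lay at −2 and −33 bp from them on the plus strand. A noncoding gene known only by its identifier, ENSG00000288761, starts within 1 kb of them.

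The treated libraries were compared at genes with a promoter peak in both. The log2 ratio of GSK126 to DMSO fold was 1.17 for VIM, 1.33 for FN1 and 0.24 for SNAI2, on a scale where the median of all 6539 such genes was 0.73 (quartiles 0.50 and 0.93) and 97.2% of them were higher with GSK126. VIM and FN1 thus lay above most genes, at percentiles 91.8 and 96.5, and SNAI2 below most, at percentile 9.11. On fragment numbers, each divided by the lowest background of its library, the log2 ratio was 1.21 (0.78 to 1.66) for VIM, 1.42 (0.49 to 2.43) for FN1 and 0.16 (−0.77 to 1.10) for SNAI2, against a median of 0.77 over all genes. That median lies inside the intervals of FN1 and SNAI2 and just below that of VIM. Higher values with GSK126 were thus common to nearly all genes of this pair of libraries, and the part of that shift in the VIM and FN1 values was not tested.

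**Figure D2:**
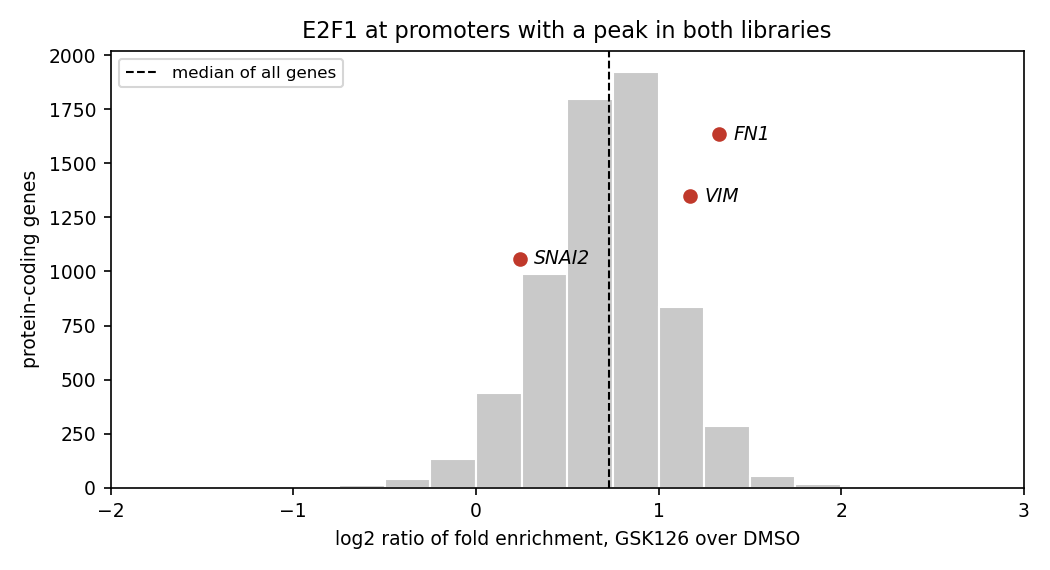
Histogram of the log2 ratio of E2F1 fold enrichment, GSK126 over DMSO (x axis), over the 6539 protein-coding genes (y axis, number of genes) with a promoter peak in both libraries; red points mark the 3 members with such a pair and their height carries no value. SNAI2 lies at 0.24, left of the dashed median at 0.73, and VIM at 1.17 and FN1 at 1.33 lie right of it.

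The remaining E2F1 promoter peaks were seen with GSK126 only. SNAI1, the gene of the E-box repressor SNAIL, had a peak (chr20:49982517-49982898) with a fold of 6.3, a −log10 q of 17.8 and 39 fragments (27.7 to 53.3), at −184 bp from its start. The motif TTGGCGC lay 80 bp from this summit. ZEB1, which encodes a zinc-finger E-box repressor of CDH1, had a weak peak with a fold of 3.87, a −log10 q of 3.76 and 14 fragments (7.65 to 23.5). It ranked 12496 of 14276 by fold in its list, 1570 bp inside the gene and at −48 bp from an internal start, beside the start of ZEB1-AS1. Neither gene had a peak in the DMSO or untreated libraries, and a peak with GSK126 and not with DMSO was held by 2 of 10 genes, against 18.7% of all genes. The reverse, a peak with DMSO and not with GSK126, was held by 0 of 10 genes (up to 30.8%), against 0.796%.

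All 5 genes with a GSK126 promoter peak had their strongest summit within 250 bp of a TSS, at most 217 bp away, as did 78.2% of all genes with such a peak. In 4 of the 5, SNAI1 being the exception, another gene started within 1 kb of the summit, against 48.9% of all genes with a peak.

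Inside gene bodies, E2F1 was seen only in ZEB2, a paralogue of ZEB1 that also represses CDH1. Its GSK126 peak (chr2:144389542-144389930) had a fold of 7.46, a −log10 q of 17 and 31 fragments (21.1 to 44), in a coding exon 131 kb downstream of the gene start and 6651 bp from the nearest annotated TSS of ZEB2. The motif TTCCCGC printed above lay 19 bp from its summit. A gene body peak was held by 0 of 10 genes in untreated cells, against 0.446% of all genes, by 0 of 10 with DMSO, against 5.74%, and by 1 of 10 with GSK126, against 7.86%.

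H3K27me3 was found at CDH1, SNAI1, TWIST2 and VIM and at no other of the 10 genes. At promoters, 2 of 10 genes (2.52% to 55.6%) had a peak with control shRNA, against 23.2% of all genes, and 2 of 10 with shE2F1, against 46.4%. The background share was about 2 times as high with shE2F1 as with control shRNA while the count of the 10 genes was the same, and the interval of 2 of 10 includes both background shares. Over gene bodies, 2 of 10 genes had a peak with control shRNA, against 24.2%, and the same genes, TWIST2 and CDH1, with shE2F1, against 26.8%.

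CDH1 encodes E-cadherin, the adhesion molecule of epithelial junctions. It had no E2F1 peak in any library, and the nearest one with DMSO or GSK126 lay 106 kb downstream of its start. Its H3K27me3 promoter peak with control shRNA (chr16:68737357-68738843) was 1487 bp wide with a mean fold enrichment of 4.03 at a −log10 q of 3.7, a q that exceeded that of 99.1% of the peaks in the list. With shE2F1 the peak (chr16:68738076-68738601) was 526 bp wide with a fold enrichment of 2.94 at a −log10 q of 1.73, exceeding 66.2% of its list. The peak was therefore narrower and weaker with shE2F1, and it lay within the wider one.

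Among the 3920 protein-coding genes with an H3K27me3 promoter peak in both shRNA libraries, the log2 ratio of the strongest fold, shE2F1 over control shRNA, had a median of 0.03 (quartiles −0.14 and 0.33) and was below 0 in 46% of genes. CDH1 had a log2 ratio of −0.45, at percentile 1.61. The midpoint of the shE2F1 peak was 987 bp from the nearest TSS, just inside the 1 kb limit. No interval can be given for this ratio, since a broad peak's fold is a mean over its length from 1 library. The percentile was taken over genes of any control shRNA fold, and genes of a like fold were not compared separately. With control shRNA, CDH1 was in the top 18.1% of the 4639 genes with a promoter peak. OVOL1, which had the highest control shRNA fold of the further pathway genes described below, also went down, from 4.58 to 3.4.

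Over its 98.2 kb, CDH1 carried 5 H3K27me3 peaks with control shRNA, covering 4918 bp or 5.01% of the gene, and 4 with shE2F1, covering 2236 bp or 2.28%. Of these bases 838 were shared. Besides the promoter peak they lay 6.7, 19.2, 48.8 and 54.5 kb from the start with control shRNA, and 18.6, 47.9 and 49.8 kb with shE2F1. Covered length was lower with shE2F1, while the strongest of its peaks was inside the gene, at 47.9 kb, with a fold enrichment of 3.52 at a −log10 q of 2.34.

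TWIST2 encodes a basic helix-loop-helix factor of the TWIST family. No E2F1 or promoter peak was found, and the H3K27me3 peaks lay 6.49 to 52.5 kb inside the gene. With control shRNA 7 peaks covered 5354 bp or 8.57% of its 62.5 kb, and with shE2F1 4 peaks covered 3559 bp or 5.69%, of which 1716 bp were shared. The widest (chr2:238873823-238877244) spanned 3422 bp with a fold enrichment of 3.88 at a −log10 q of 2.44 with control shRNA. At the same place the shE2F1 peak (chr2:238874764-238876318) spanned 1555 bp with a fold enrichment of 2.87 at a −log10 q of 1.27. Taking the strongest peak at the promoter or over the gene, the log2 ratio of fold, shE2F1 over control shRNA, was −0.32 for TWIST2 and −0.19 for CDH1. These ratios compare different places: 27.5 kb (control shRNA) and 38.9 kb (shE2F1) in TWIST2, and 0.808 and 47.9 kb in CDH1. CDH1 peaks of both libraries overlapped at the promoter, where the fold was 4.03 with control shRNA and 2.94 with shE2F1. They also overlapped at 48.8 kb (control shRNA) and 47.9 kb (shE2F1), where the fold was 3.15 and 3.52. The same control shRNA peak also overlapped a weaker shE2F1 peak at 49.8 kb, with a fold of 2.48. Peaks covered fewer bases with shE2F1 at both genes. All protein-coding genes together went the other way, from 4.49% of gene bases inside peaks with control shRNA to 5.73% with shE2F1, and the 10 genes together from 1.06% to 0.638%. The value of the 10 genes with control shRNA came from TWIST2 and CDH1 alone, so it does not describe the group. VIM went up, from 0 to 363 bp. The peak at SNAI1, which lies outside the gene and is not in this share, was also wider with shE2F1, at 3221 against 1052 bp.

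**Figure D3:**
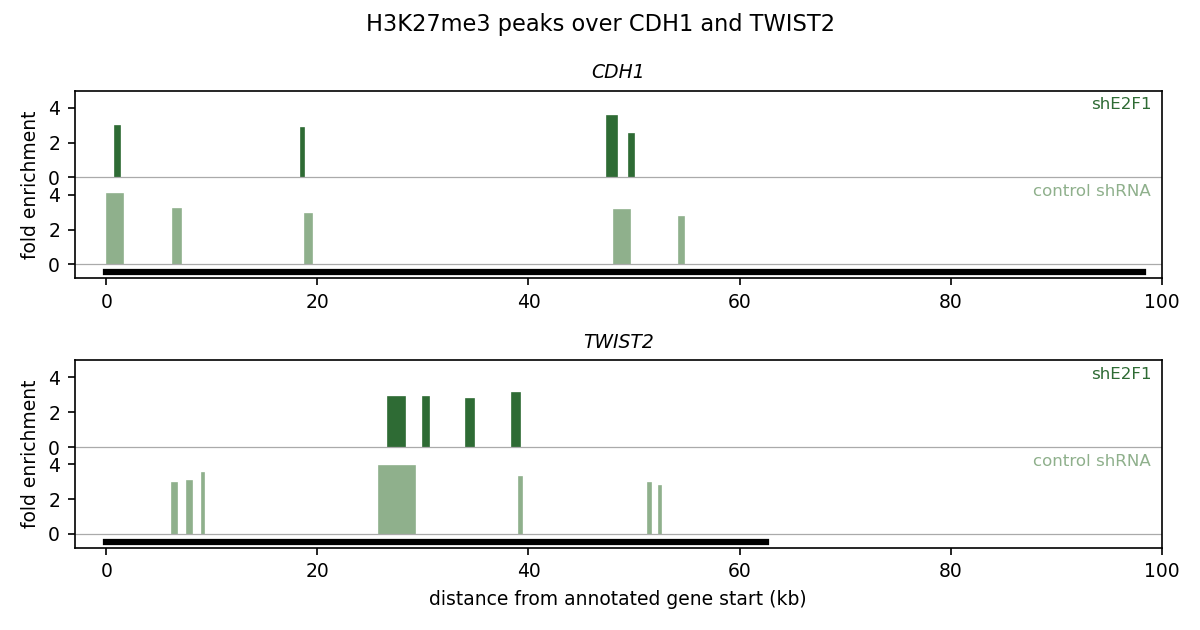
H3K27me3 peaks along CDH1 (top) and TWIST2 (bottom), with distance from the annotated gene start in kb (x axis) and mean fold enrichment (y axis, starting at 0 for each library); each bar is 1 peak at its true width with a thin outline, and the black line is the gene. In CDH1 5 control shRNA peaks stand against 4 with shE2F1, and in TWIST2 7 against 4.

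At SNAI1 the mark lay upstream of the gene in both shRNA libraries. The control shRNA peak (chr20:49981716-49982767) was 1052 bp wide with a fold enrichment of 2.6 at a −log10 q of 1.52, its midpoint at −738 bp from the start. With shE2F1 the peak (chr20:49979635-49982855) was 3221 bp wide with a fold enrichment of 2.82 at a −log10 q of 1.9, its midpoint at −1735 bp. The shE2F1 peak covered all 1052 bp of the control peak, so SNAI1 is counted at its promoter in 1 library only because the midpoint of the wider peak fell outside 1 kb. By the midpoint rule, a promoter peak with control shRNA and not with shE2F1 was held by 1 of 10 genes, against 3.6% of all genes.

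The E2F1 peak of SNAI1 in GSK126-treated cells shared 251 bp with the H3K27me3 peak of control shRNA cells and 339 bp with that of shE2F1 cells. It was the only 1 of the 6 GSK126 promoter peaks of these genes to overlap an H3K27me3 peak, against 13.2% of all GSK126 promoter peaks for control shRNA and 50.9% for shE2F1. The marks come from different cultures under different treatments, so an overlap does not place them on the same molecule.

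At VIM the mark was seen with shE2F1 only, in a weak peak (chr10:17229579-17229941) of 363 bp, with a fold enrichment of 2.47 at a −log10 q of 1.12, which exceeded that of only 9.58% of its list. It lay 1519 bp downstream of the gene start, between both E2F1 peaks of GSK126-treated cells and overlapping neither. A promoter peak with shE2F1 and not with control shRNA was held by this 1 of 10 genes, against 26.8% of all genes.

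**Figure D4:**
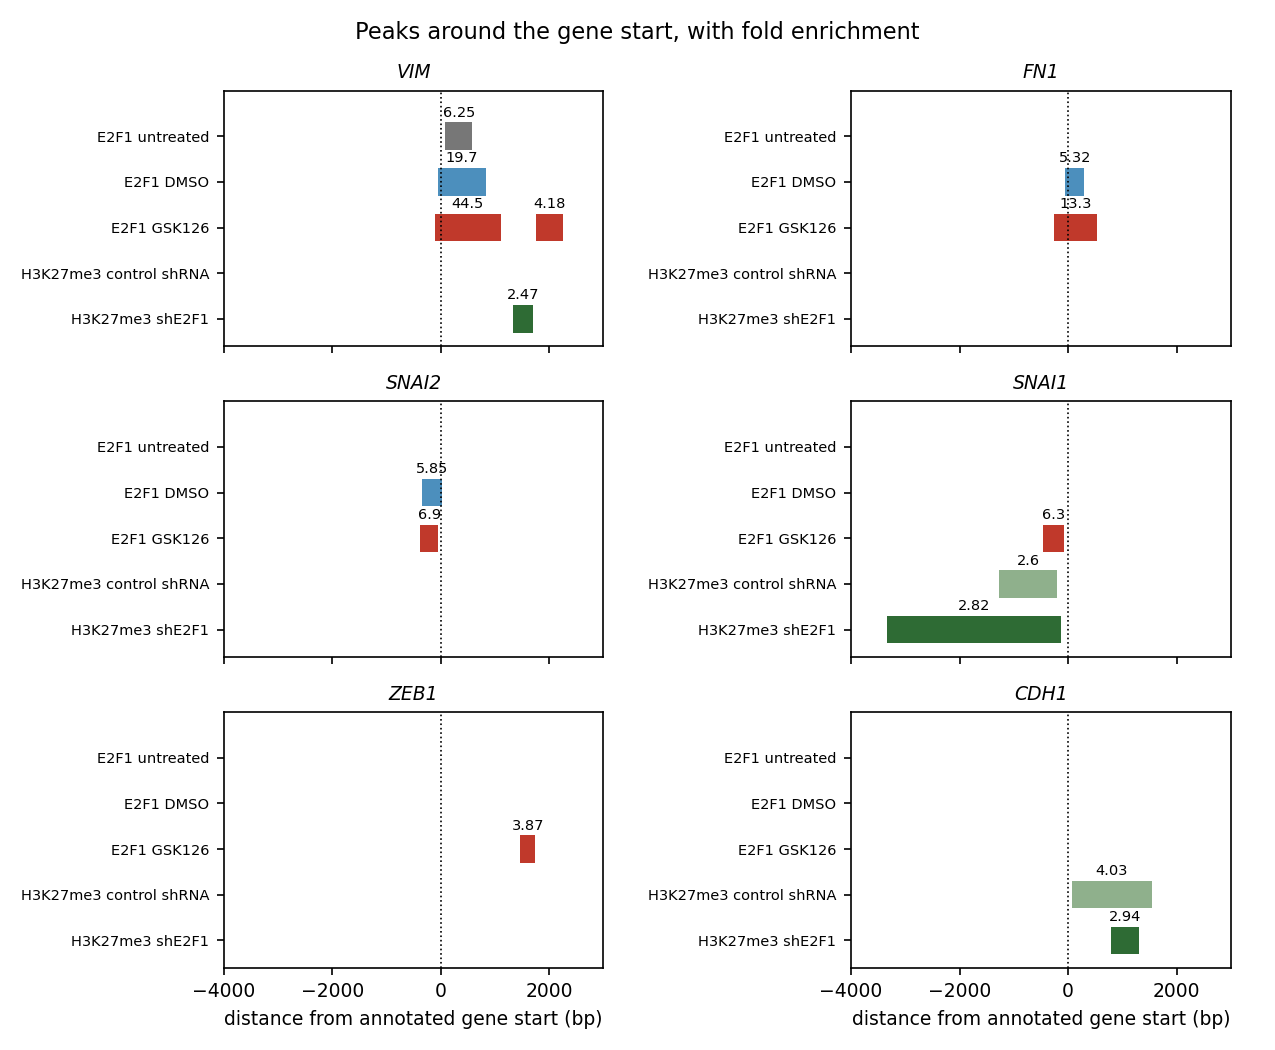
Peaks around the annotated start (dotted line) of VIM, FN1, SNAI2, SNAI1, ZEB1 and CDH1 (x axis, distance in bp) in each of the 5 libraries (y axis); positive distances are downstream, bars are peaks at their true width, and the number above a bar is its fold enrichment. The E2F1 peaks of VIM are 500, 891 and 1229 bp wide in the untreated, DMSO and GSK126 libraries, and the shE2F1 peak of SNAI1 spans the control shRNA peak.

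TWIST1, a basic helix-loop-helix repressor, and CDH2, the gene of the mesenchymal N-cadherin, had no peak at the promoter or over the gene in any of the 5 lists, as was the case for 20.1% of all protein-coding genes. The nearest E2F1 peak to the TWIST1 start lay 2830 kb away in untreated cells, 1030 kb with DMSO and 288 kb with GSK126. For CDH2 these distances were 3910, 724 and 1260 kb. The nearest H3K27me3 peak lay 873 and 1030 kb from TWIST1, with control shRNA and shE2F1, and 583 and 582 kb from CDH2. The medians over protein-coding genes were 513, 36.9 and 4.55 kb for E2F1 and 19.7 and 3.35 kb for H3K27me3, so both genes stood in longer stretches without peaks than the median gene. FN1, SNAI2, ZEB1 and ZEB2 had no H3K27me3 peak at the promoter or over the gene in either library.

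RefSeq promoter sequences of 300 bases, 250 before to 50 after the gene start, were found for TWIST2, ZEB1, ZEB2, CDH2, VIM and FN1. None of the 6 held the E2F motif, against 17.1% of 15812 promoters with it. An E-box of the kind bound by SNAIL and ZEB factors (CACCTG or CAGGTG) was found in the ZEB1 promoter alone, at −57 bp from the start, against 19.9% of all promoters. GC content ran from 48% in VIM to 76.7% in FN1, around a median of 62.7% over all promoters. The motifs at the summits of FN1 and ZEB2 lie outside these windows.

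In a list of 82 further genes of the pathway, E2F1 promoter peaks were counted at 2 genes in untreated cells (2.44%, 0.297% to 8.53%), at 30 with DMSO (36.6%, 26.2% to 48%) and at 48 with GSK126 (58.5%, 47.1% to 69.3%). H3K27me3 promoter peaks were counted at 14 genes with control shRNA (17.1%, 9.66% to 27%) and at 43 with shE2F1 (52.4%, 41.1% to 63.6%). The interval of each count includes the background share given above. A GSK126 peak without a DMSO peak was held by 19 genes (23.2%, 14.6% to 33.8%), against 18.7% of all genes, and the reverse by SMAD7 alone (1.22%, 0.0309% to 6.61%), against 0.796%. An H3K27me3 peak with shE2F1 and not with control shRNA was held by 29 genes (35.4%, 25.1% to 46.7%), against 26.8% of all genes, and the reverse by 0 (up to 4.4%), against 3.6%. These intervals, too, include the background. The median log2 ratio of GSK126 to DMSO fold over the 29 genes with both was 0.67, with 27 higher with GSK126.

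Both untreated peaks were at CD44, a hyaluronan receptor, and EZH2. The fold in untreated, DMSO and GSK126 libraries was 5.85, 7.37 and 16.4 at CD44 and 31.3, 48.7 and 96 at EZH2. In every library the fold at EZH2 was above that of VIM and the fold at CD44 was below it. EZH2 also had H3K27me3 promoter peaks, with folds of 3.51 with control shRNA and 4.59 with shE2F1.

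The list was also read by role group, beside the shares of all protein-coding genes of 33.5% with DMSO, 51.5% with GSK126, 23.2% with control shRNA and 46.4% with shE2F1. All 9 corepressors of SNAIL and ZEB had a GSK126 peak (66.4% to 100%, background 51.5%) and 7 a DMSO peak (40% to 97.2%, background 33.5%), led after EZH2 by the histone deacetylase gene HDAC2 (fold 11 with DMSO, 15.9 with GSK126). CTBP1, a corepressor gene, had the highest H3K27me3 −log10 q there after EZH2, 3.9 with shE2F1, and no peak with control shRNA. Of the 9, 1 had an H3K27me3 promoter peak with control shRNA (0.281% to 48.2%) and 6 with shE2F1 (29.9% to 92.5%), intervals that include the background. Of 11 genes of TGF-beta signalling, an inducer of the transition, 7 had a DMSO peak (30.8% to 89.1%) and 9 a GSK126 peak (48.2% to 97.7%), intervals that include the background. The highest GSK126 folds there were at the signal transducers SMAD2 (12.1 with DMSO, 19.6 with GSK126) and SMAD3 (6.27 and 15). Of the 11, 0 had an H3K27me3 promoter peak with control shRNA (up to 28.5%, background 23.2%) and 7 with shE2F1 (30.8% to 89.1%, background 46.4%), where both intervals include the background, with the highest −log10 q at the receptor gene TGFBR1 (2.23) and at SMAD4 (1.74). Of 10 epithelial regulators, 0 had a DMSO peak (up to 30.8%, background 33.5%) and 3 a GSK126 peak (6.67% to 65.2%, background 51.5%), led by the splicing regulator ESRP2 (5.55 with GSK126) and the factor GRHL1 (4.19). In the latter group 5 of 10 genes had an H3K27me3 promoter peak with control shRNA (18.7% to 81.3%, background 23.2%) and 7 with shE2F1 (34.8% to 93.3%, background 46.4%). The role groups were chosen with earlier results of these data known, and the corepressors include EZH2 and SUZ12, which the study itself examined. An interval that leaves out the background is therefore not a result about a group. The role groups were not tested against each other or against all genes.

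The highest −log10 q of H3K27me3 among epithelial regulators was at OVOL1, a repressor of ZEB1, with 6.5 for control shRNA and 3.95 for shE2F1, and at ESRP1, with 3.1 and 2.4. At CTNNB1, which encodes the cadherin partner beta-catenin, the value was 1.51 with control shRNA and 5.02 with shE2F1, and at TJP1, a tight junction gene, a peak was listed with shE2F1 only (3.38). Of 16 junction and keratin genes, 4 had an E2F1 peak with DMSO (7.27% to 52.4%, background 33.5%) and 9 with GSK126 (29.9% to 80.2%, background 51.5%), led by TJP1 (3.72 and 7.55) and DSP, the gene of desmoplakin (5.67 and 7.15). H3K27me3 promoter peaks were held by 2 of the 16 with control shRNA (12.5%, background 23.2%) and by 8 with shE2F1 (50%, background 46.4%).

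Of 14 mesenchymal regulators, 5 had an E2F1 peak with DMSO (35.7%, background 33.5%) and 7 with GSK126 (50%, background 51.5%), led by the E-protein genes TCF12 (9.97 and 15.8) and TCF3 (9.15 and 12.8). TCF3 also had the highest −log10 q of H3K27me3 in this group, 5.24 with shE2F1 and no peak with control shRNA, followed by FOXC1 (4.31, likewise with shE2F1 only). H3K27me3 promoter peaks were held by 3 of the 14 with control shRNA (21.4%, background 23.2%) and by 8 with shE2F1 (57.1%, background 46.4%). Of 22 matrix and cytoskeleton genes, 7 had an E2F1 peak with DMSO (31.8%, background 33.5%) and 11 with GSK126 (50%, background 51.5%), led by CD44 and the integrin gene ITGB1 (10.3 and 13.5). THY1, a surface glycoprotein gene, held the highest −log10 q of H3K27me3 there, with 1.68 and 2.53, followed by the gelatinase gene MMP9 (2 with shE2F1 only). Of the 22, 3 had an H3K27me3 promoter peak with control shRNA (13.6%, background 23.2%) and 7 with shE2F1 (31.8%, background 46.4%).

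**Figure D5:**
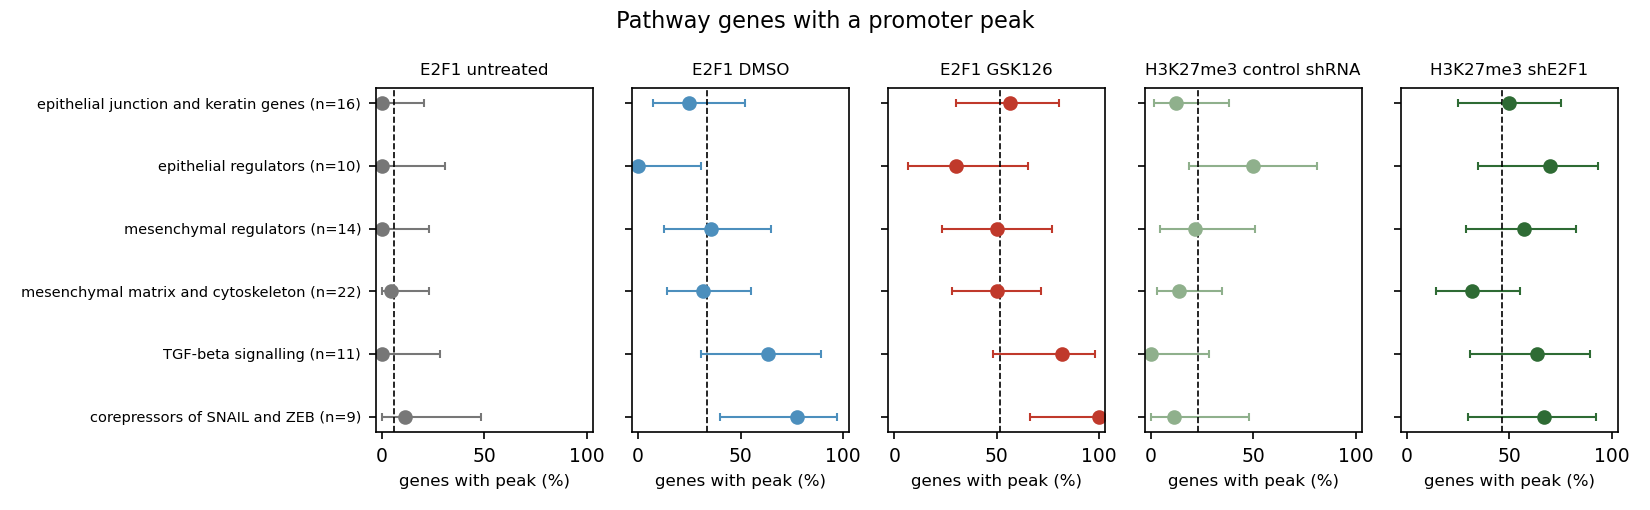
Share of genes with a promoter peak in percent (x axis) for 6 role groups of the 82 pathway genes (y axis, n is the number of genes) in each of the 5 libraries; points are shares, bars are 95% exact binomial intervals for counting error, and the dashed line is the share of all protein-coding genes. Corepressors reach 100% and epithelial regulators 30% in the GSK126 library, against a background of 51.5%. The groups were chosen with earlier results of these data known.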

How the data were processed

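ChIP-seq peak lists of MDA-MB-231 cells were used, 1 library per group. Per the labels and the study's methods, chromatin was sonicated for E2F1 and cut with micrococcal nuclease for H3K27me3, and the authors trimmed paired reads with cutadapt 4.5, aligned them to GRCh38 with Bowtie2 2.5.2 and called peaks by MACS2 2.2.9.1 (narrow mode for E2F1, broad mode for H3K27me3), with 1 list deposited per library. Whether the input served as control is not given in the sources used here. The deposited lists give the fold enrichment of each peak, a ratio of signal to background, which MACS2 takes at the summit for E2F1 and as a mean along the peak for H3K27me3. The deposited −log10 p and −log10 q values were taken as given. The deposited score was not used. The offset of the summit is a further deposited column. The input sample was not used here. Read totals were not used here, so depth was judged from the lowest background at a summit.

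The peaks of the 10 genes were found with Python 3.11.15, numpy 2.4.6, pandas 2.3.3 and scipy 1.17.1, against 19970 protein-coding genes of GENCODE release 44, a different annotation from the authors' own. A promoter peak lies within 1000 bp of any TSS of the gene, and a gene body peak lies inside the gene and outside these windows. Fragments at an E2F1 summit were solved from fold and −log10 p, with MACS2's pseudocount of 1 on each side, and the solver was tested on simulated data. Intervals are exact (Clopper-Pearson for shares and for ratios of fragments, Poisson for fragments), at 95%, and cover counting error only, since duplicates and library preparation add error that they do not hold. Promoter sequences came from RefSeq (GRCh38.p14, 6 of 10 genes matched) and summit sequences from hg38. The genes and the pathway lists were chosen with earlier results of these data known. Named were all 10 genes, pathway genes with an untreated E2F1 peak and, per role group, the 2 with the highest E2F1 fold and the 2 with the highest H3K27me3 −log10 q. With 1 library per group no test was run. Alternatives were promoter width, gene start only, stricter q, peak overlap in place of the midpoint, gene bodies without promoter windows, other choices of the strongest peak and equal list sizes.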

Additional observations from a re-analysis of the deposited data

How the results depend on the processing

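Under the alternatives, 45 recomputed values stayed close to the reported value (counts within 1.5 times of it), 17 moved (any change, for a covered share) and none changed sign. E2F1 ratios were judged against the width of their fragment intervals, and H3K27me3 ratios had to be unchanged. Some of the 45 could not have moved, such as the untreated list cut to its own size and counts of 0 under a stricter q. Limiting the H3K27me3 ratios of TWIST2 and CDH1 to overlapping peaks kept the same strongest peaks, so both ratios had to stay as they were. They still compared different places, so their kept sign says nothing about a change at a given place. At its overlapping places CDH1 went both ways, as given above. With E2F1 lists limited to their strongest peaks, as many as the untreated list holds (chosen after seeing the data), DMSO and GSK126 each kept 1 promoter gene, VIM, in place of 3 and 5. The untreated list, which is of that size, marked 5.85% of all genes. For H3K27me3, control shRNA promoters counted 0 genes within 500 bp, 1 (CDH1) where −log10 q had to reach 2 and 0 where it had to reach 5. The shE2F1 promoters counted 1 (VIM) within 500 bp and 0 at the gene start alone, at a −log10 q of 2 and at 5. At a −log10 q of 2, gene bodies counted 1 for control shRNA (TWIST2) and 1 for shE2F1 (CDH1), the covered share was 0.508% and 0.0977%, and 7 and 18 pathway genes had a promoter peak. Without promoter windows the covered share was 1.07% and 0.635%. Fewer peaks or a smaller window are the construction of these alternatives. Shares over all protein-coding genes were not computed under them, so these counts have no background and are not results about the genes. The CDH1 peak of control shRNA, with its midpoint 748 bp from a TSS, was thus kept at a −log10 q of 2 and lost within 500 bp and at a −log10 q of 5. The other counts at H3K27me3 promoters rest on weak peaks or on peaks near the 1 kb limit. No paired analysis was possible because each group has 1 library. The untreated E2F1 list was the shortest and had the lowest background, the part of depth in its counts was not tested, and a gene without a peak there cannot be taken to lack E2F1.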

Other observations

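Peaks outside the genes and their promoters were also looked at. An E2F1 peak 285 kb downstream of the ZEB1 start, beyond the end of the 211 kb gene, was listed in untreated cells with a fold enrichment of 9.79 (−log10 q 12.4), and in DMSO-treated cells with a fold enrichment of 12.6 (−log10 q 33.9). No protein-coding gene starts closer to it than ZEB1, whose own promoter had no peak in either library. With GSK126, ZEB1 and 100 kb on each side held 2 E2F1 peaks, the promoter peak and another whose place was not looked up. Whether the distal peak was also present with GSK126 is therefore not given here. In untreated cells the peak closest to FN1 lay 124 kb downstream of the FN1 start, with a fold enrichment of 4.8, and the gene start closest to it was that of ATIC.

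Within the genes and 100 kb on each side, TWIST2 had 26 H3K27me3 peaks with control shRNA and 21 with shE2F1. No other listed gene had fewer with shE2F1. SNAI1 had 7 and 13, SNAI2 6 and 8, VIM 1 and 4, and ZEB2 0 and 1. ZEB1 had 7 and 7, CDH1 had 9 and 9, and TWIST1, CDH2 and FN1 had none in either library. In the same windows SNAI1 had 5 E2F1 peaks with GSK126 and none with DMSO, the widest gap among the listed genes. The GSK126 and DMSO counts were 3 and 1 at VIM, 2 and 1 at ZEB1 and at ZEB2, and 2 and 2 at FN1. At SNAI2 and CDH1 they were 1 and 1, and TWIST1, TWIST2 and CDH2 had none. Counts in these windows were not made over all protein-coding genes, so no background share stands beside them.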
